A study of Mus musculus with 6 samples.

Results

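The 40 genes described here build and process the chromosomes of meiotic prophase in the mouse testis. They were taken by symbol from the gene tables, as a list covering entry into meiosis (4 genes), DNA break formation (7), the HORMA-domain axis (3), strand exchange (5), synapsis (7), crossover formation (6), meiotic cohesin (4) and telomere attachment (4). All 40 were among the 34144 rows of the tables, and all 40 had enough counts to be tested. The RNA came from decapsulated testes of 6 C57Bl/6J mice aged 3 months, 3 with the genotype Nsun7-/- and 3 wild type (WT), with 1 library per mouse. The knockout was stated for the whole animal, with no cell-type-specific driver named, and the altered part of Nsun7 is not given in the sources used here. Nsun7 is a relative of the RNA cytosine methyltransferases. The series title ties it to the sperm tail and to the transcripts of elongated spermatids, cells that arise well after meiotic prophase.

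In meiotic prophase each pair of homologous chromosomes is broken on purpose, aligned and repaired so that crossovers join the homologs. Retinoic acid induces Stra8, whose product works with MEIOSIN as a transcription factor to switch the germ cell to meiosis. SPO11 then cuts the DNA, DMC1 carries the broken strand into the homolog, the synaptonemal complex zips the homologs together, and a few of the repair sites mature into crossovers. Meiosis-specific cohesins hold the chromosome axis, and a telomere complex tethers the chromosome ends to the nuclear envelope so that the chromosomes can be moved. In the adult testis all of these stages are present at once, since new cells enter meiosis in each cycle of the seminiferous epithelium.

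The promoters of 3 members and of 1 further crossover gene are printed, because these are 3 of the 4 members with an unadjusted p under 0.05 and the 1 other meiotic gene that passed the adjusted threshold in the results below. Each sequence is the 250 bases before the RefSeq start on build GRCm38.p6, read 5′ to 3′ on the gene's strand. Stra8 lies at chr6:34920698-34920947 on the + strand, Meiosin (named Bhmg1 in RefSeq) at chr7:19118345-19118594 on the - strand, Dmc1 at chr15:79605110-79605359 on the - strand, and Hfm1 at chr5:106925891-106926140 on the - strand. Capitals mark matches to an E-box (CACGTG), the E2F core (TCCCGC, or GCGGGA on the other strand) and a CCAAT box (CCAAT, or ATTGG on the other strand).
Stra8: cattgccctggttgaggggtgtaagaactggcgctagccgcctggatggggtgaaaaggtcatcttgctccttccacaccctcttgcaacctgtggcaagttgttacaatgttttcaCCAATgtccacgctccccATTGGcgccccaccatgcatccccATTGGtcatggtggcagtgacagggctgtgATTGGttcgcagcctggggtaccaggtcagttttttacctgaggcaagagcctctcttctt
Meiosin: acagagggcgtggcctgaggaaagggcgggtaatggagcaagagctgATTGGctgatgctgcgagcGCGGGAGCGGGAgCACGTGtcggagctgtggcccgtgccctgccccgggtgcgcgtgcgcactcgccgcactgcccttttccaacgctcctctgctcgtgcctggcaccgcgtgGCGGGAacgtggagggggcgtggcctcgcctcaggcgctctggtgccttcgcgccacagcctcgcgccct
Dmc1: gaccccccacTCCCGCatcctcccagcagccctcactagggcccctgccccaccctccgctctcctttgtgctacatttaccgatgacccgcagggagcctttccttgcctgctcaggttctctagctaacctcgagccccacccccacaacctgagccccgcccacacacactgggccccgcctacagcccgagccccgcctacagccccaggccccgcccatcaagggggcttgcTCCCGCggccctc
Hfm1: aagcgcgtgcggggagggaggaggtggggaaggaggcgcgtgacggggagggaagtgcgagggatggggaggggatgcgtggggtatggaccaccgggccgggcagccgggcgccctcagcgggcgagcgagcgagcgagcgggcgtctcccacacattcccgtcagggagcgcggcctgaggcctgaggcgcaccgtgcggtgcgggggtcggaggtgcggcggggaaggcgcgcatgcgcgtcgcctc
Stra8 carried 4 CCAAT boxes, Meiosin 1 E-box, 3 E2F cores and 1 CCAAT box, Dmc1 2 E2F cores, and Hfm1 none of these letters. Windows were found for 33 members (39 windows, since some genes have several starts). The E2F core stood in 51.3% of the member windows, against 16.9% of all 32851 windows of the same length, and the E-box in 23.1% against 6.02%. The CCAAT box stood in 46.2% of member windows and 33.8% of all windows, and the MYB motif AACTGCC (both strands) in 0% and 3.33%. The E2F and E-box letters are those read by E2F6 and by the MGA and MAX proteins, which are known to keep germline genes silent in other cells. A match is a description of the letters and not a bound site.

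The libraries held between 23480448 and 28558865 gene counts. Nsun7 itself had 18.0, 17.8 and 25.2 CPM (counts scaled to a fixed library total) in the knockout libraries, against 36.6, 35.7 and 37.2 CPM in WT. The gene was therefore still detected in the knockout libraries, at 49.4%, 48.8% and 68.9% of the WT mean. Its log2 fold change was -0.84 (SE 0.15, adjusted p = 0.016, edgeR quasi-likelihood test with Benjamini-Hochberg adjustment over 21002 genes), and this call was lost without knockout mouse 2 (adjusted p = 0.093) or without any 1 of the WT mice (0.0848, 0.0556 and 0.0785 without mouse 1, 2 and 3). Knockout mouse 3 and WT mouse 1 stood at opposite ends of the first principal component (-49.2 and 38.3 on an axis holding 35.5% of the variance). All 71 marker genes of 8 testis cell types were detected, so 0 of them were at zero. The called markers were 2 of the 9 Leydig genes, Hsd3b1 (1.17, adjusted p = 0.0034, edgeR) and Hsd17b3 (0.80, 0.018). Of the Leydig list 8 of 9 lay above 0 (median 0.60), with sums of 5075, 3063 and 2294 CPM in the knockout libraries and 3010, 2450 and 1869 CPM in WT. The macrophage markers lay above 0 in 8 of 8 cases, with sums that overlapped (330.2, 242 and 203 CPM in the knockout, 206, 249 and 193 CPM in WT). The part of these cells in the members' values was not tested.

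None of the 40 genes passed the adjusted threshold of 0.05 in the comparison of Nsun7-/- with WT testes. Across all tested genes 119 of 21002 passed (0.567%, made up of 0.233% that rose and 0.333% that fell in the knockout), and 0 of 40 is close to that share. DESeq2 called 0 of the 40 members and 1.01% of all genes, and limma voom called 0 members. At an unadjusted p under 0.05, edgeR had 4 members (10% of the list, against 8.39% of all genes) and DESeq2 had 3. The 4 members were Stra8, Meiosin, Dmc1 and Tex11, and each was lower in the knockout, as were 3.92% of all genes at that unadjusted p. The 40 adjusted p-values ran from 0.325 for Stra8 to 0.999 for Sycp3.

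The median log2 fold change was -0.05 over the 40 members and 0.01 over all tested genes. Of the members 24 lay below 0 (60%, against 47.5% of all genes) and 16 lay above. The 95% interval of the fold change stayed within 1 log2 unit of 0 for 38 of 40 members (81.4% of all genes do so), and within a fold of 1.5 for 26 of 40 (54.1% of all genes). The exceptions to the wider limit were Mei4 and Rad21l, which had between 12 and 31 and between 20 and 29 counts per library. In bulk tissue, fewer cells of a type and less RNA per cell cannot be told apart.

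**Figure D1:**
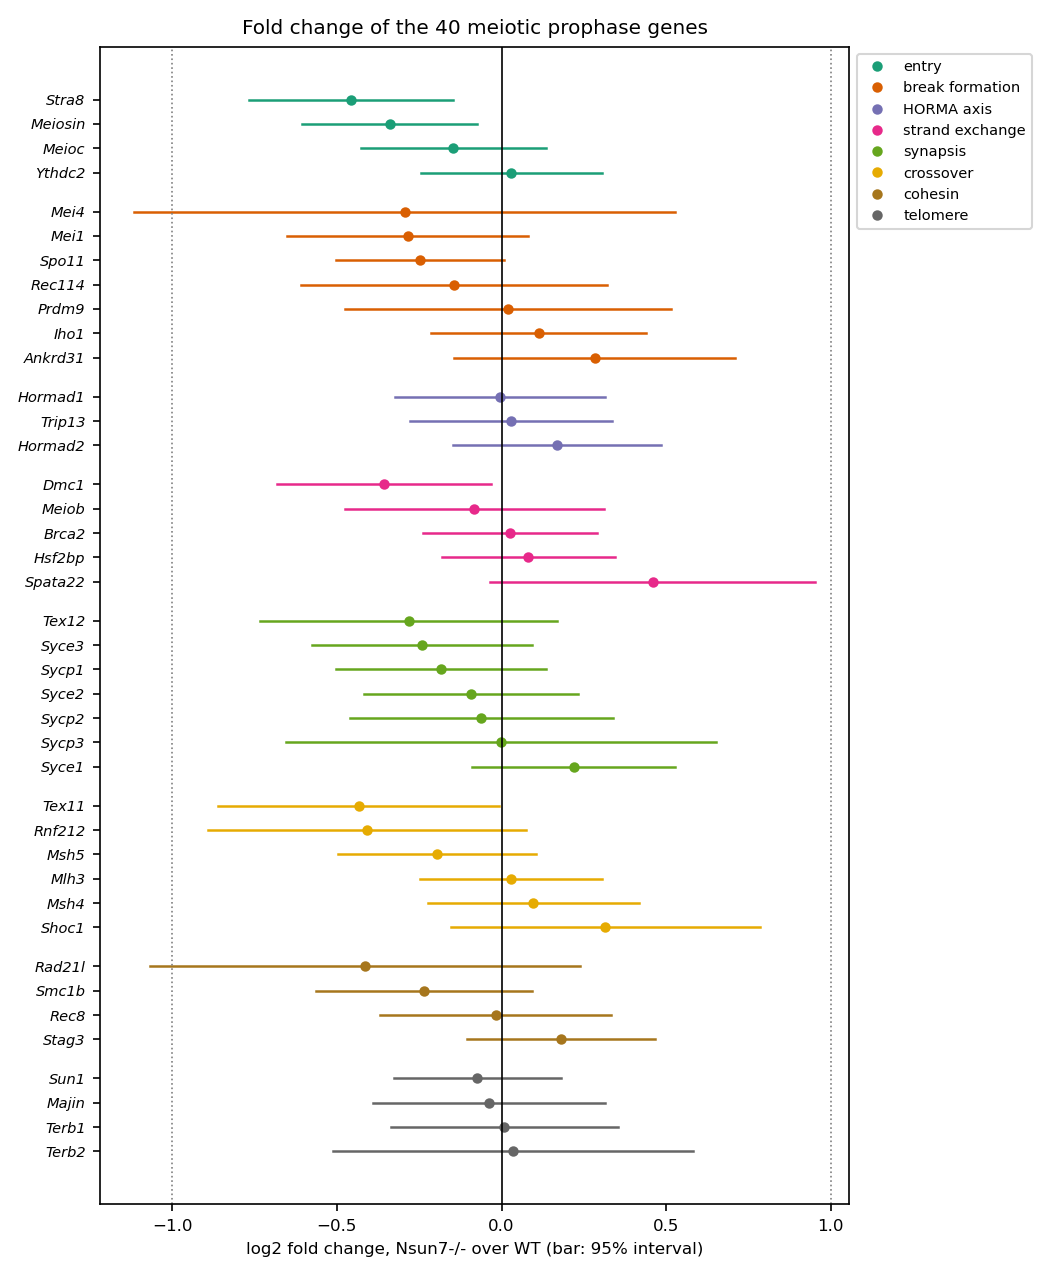
Log2 fold change of each of the 40 genes (Nsun7-/- over WT, points) with its 95% interval (bars), grouped and coloured by sub-group; dotted lines mark 1 log2 unit either way. The points run from -0.46 for Stra8 to 0.46 for Spata22, and only the bars of Mei4 and Rad21l cross a dotted line.

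The levels of 6 members did not overlap between genotypes and were lower in the knockout on the CPM scale (15%, against 6.95% of all tested genes). They were Stra8, Meiosin, Spo11, Dmc1, Tex11 and Rad21l, the last at between 20 and 29 counts per library. Spata22 alone was higher without overlap (2.5%, against 7.38%). The pattern depends on the scale. In the deposited TPM, 0 members were lower and 7 were higher without overlap. The matching share of all genes was not computed on TPM, so the 7 are not read as particular to the members. On log2(TPM + 1) the median of all genes lay 0.25 above 0, while the single noncoding RNA Rmrp took between 11.4% and 17.5% of the TPM in the knockout libraries and between 15.7% and 33.3% in WT. Estimated fragments averaged 175.7, 178.5 and 175.5 bases in the knockout libraries, against 154.2, 167.7 and 175.1 bases in WT, so this measure of the libraries did not overlap between genotypes either. Its part in the members' values was not tested. With 3 mice in each group the smallest p that an exact two-sided permutation test of 1 gene can give is 0.1.

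**Figure D2:**
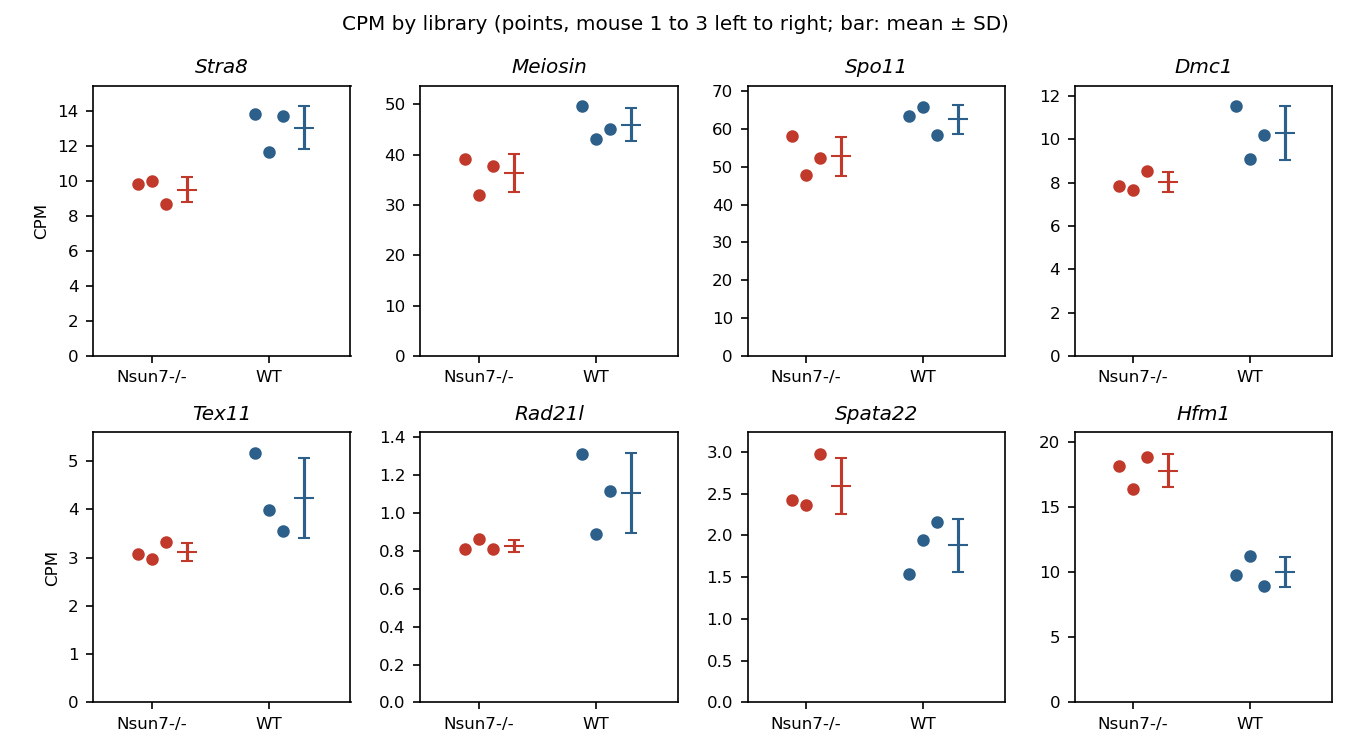
CPM in each library (points; knockout red, WT blue, mouse 1 to 3 from left to right) with mean ± SD (bars, n = 3) for the 7 members whose genotypes do not overlap and for Hfm1. The knockout points lie below the WT points for Stra8, Meiosin, Spo11, Dmc1, Tex11 and Rad21l, and above them for Spata22 and Hfm1.

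Among the entry genes, Stra8, the retinoic acid target that commits the cell to meiosis, had 9.82, 9.97 and 8.70 CPM in the knockout libraries of mice 1, 2 and 3, against 13.8, 11.6 and 13.7 CPM in the WT libraries in the same order. All knockout libraries lay below all WT libraries. The log2 fold change was -0.46 (SE 0.14, adjusted p = 0.325, edgeR), and adjusted p ran from 0.134 to 0.865 over the 15 alternatives tried. Meiosin, which encodes the partner of STRA8, had 39.1, 32.0 and 37.8 CPM in knockout testes and 49.7, 43.2 and 45.0 CPM in WT testes. These groups did not overlap either, with a log2 fold change of -0.34 (SE 0.12, adjusted p = 0.467, edgeR). Meioc, needed with YTHDC2 to keep cells in the meiotic programme, had 33.6, 34.2 and 36.8 CPM in the knockout and 45.2, 34.5 and 36.0 CPM in WT, which overlap (log2 fold change -0.15, or -0.028 without WT mouse 1). Ythdc2, an RNA helicase that binds methylated RNA, averaged 38.7 ± 5.1 CPM in the knockout and 38.0 ± 2.2 CPM in WT (SD, n = 3 each). The spermatogonial markers summed to 431, 413 and 366 CPM in the knockout libraries and to 442, 416 and 424 CPM in WT. Of these 0 of 9 were called and 4 of 9 lay above 0. At an unadjusted p under 0.05 (edgeR) there were 2 of 9, against 8.39% of all genes. They were Gfra1 at 0.52 (SE 0.18) and Dmrt1 at -0.29 (SE 0.12), so the sums hide genes that differ in direction. The list does not separate the spermatogonia about to enter meiosis from the others. Their part in the values of the entry genes was not tested.

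Of the break formation genes, Spo11, which encodes the enzyme that cuts the DNA, had 58.1, 47.8 and 52.4 CPM in the knockout, against 63.5, 65.9 and 58.5 CPM in WT. The lowest WT library and the highest knockout library were close, and the log2 fold change was -0.25 (SE 0.12, adjusted p = 0.604, edgeR). Mei1, required for break formation, had 27.2, 28.1 and 17.1 CPM in the knockout and 30.7, 30.2 and 27.2 CPM in WT. Knockout mouse 3 stood well below the other 5 libraries for this gene. Without that library the Mei1 log2 fold change was -0.092, against -0.29 (SE 0.17, adjusted p = 0.656, edgeR) with all 6. The others are Mei4, Rec114 and Iho1, members of the complexes that recruit SPO11, Ankrd31, their partner, and Prdm9, the histone methyltransferase that sets hotspots. These 5 lay between -0.29 for Mei4 and 0.28 for Ankrd31, and all overlapped between genotypes. Ankrd31 had 8.33, 8.81 and 14.5 CPM in the knockout and 8.38, 9.27 and 8.40 CPM in WT, so knockout mouse 3 alone stood high.

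The HORMA axis genes differed little in level. Hormad2, which watches over unsynapsed axes, had 15.4, 16.3 and 20.9 CPM in the knockout and 14.9, 15.4 and 16.5 CPM in WT, with a log2 fold change of 0.17 (SE 0.15, adjusted p = 0.738, edgeR), or 0.016 without knockout mouse 3. Trip13, the ATPase that strips HORMA proteins from synapsed chromosomes, had 14.96, 13.1 and 15.2 CPM in the knockout and 12.9, 16.0 and 13.5 CPM in WT. Its log2 fold change of 0.03 (95% interval -0.28 to 0.34) took the other sign in 8 of the 15 alternatives. Hormad1 averaged 13.3 ± 1.9 CPM in the knockout and 13.4 ± 1.1 CPM in WT (SD, n = 3 each).

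Within strand exchange, Dmc1, the meiotic recombinase, had 7.84, 7.65 and 8.54 CPM in the knockout, against 11.5, 9.07 and 10.2 CPM in WT. The groups did not overlap, and the log2 fold change was -0.36 (SE 0.15, adjusted p = 0.562, edgeR). Spata22, which works with MEIOB on single-stranded DNA, had 2.43, 2.36 and 2.98 CPM in the knockout and 1.54, 1.94 and 2.16 CPM in WT, or between 34 and 92 counts per library. The knockout libraries all lay above WT, with a log2 fold change of 0.46 (SE 0.23, adjusted p = 0.619, edgeR). Its partner gene Meiob lay at -0.08 (SE 0.18), with 4.28 ± 0.61 CPM in the knockout and 4.55 ± 0.42 CPM in WT (SD, n = 3 each). Brca2, which loads DMC1 on the broken DNA, had 39.7, 41.4 and 49.5 CPM in the knockout and 43.3, 40.7 and 44.5 CPM in WT. Hsf2bp, a BRCA2-binding factor, lay at 0.08 (SE 0.12). Spata22 shares exon sequence with Gm49340 on the same strand in GENCODE M21, so reads of these genes may be split between the rows.

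Of the 7 synapsis genes 6 lay below 0 and 1 above, and each overlapped between genotypes. Syce3, a central element protein of the synaptonemal complex, had 12.5, 12.3 and 9.90 CPM in the knockout, against 15.8, 12.8 and 12.4 CPM in WT (log2 fold change -0.24, SE 0.16, adjusted p = 0.670, edgeR). Syce1, another central element gene, had 35.0, 33.5 and 46.4 CPM in the knockout and 33.2, 29.9 and 35.7 CPM in WT (0.22, SE 0.14, adjusted p = 0.671). The values of knockout mouse 3 were therefore the lowest of the 6 for Syce3 and the highest for Syce1. Without that library the log2 fold change of Syce1 was 0.052 and that of Syce3 -0.145, and Syce3 lay at -0.132 without WT mouse 1. Sycp1, the transverse filament gene, averaged 16.4 ± 0.5 CPM in the knockout and 18.6 ± 3.4 CPM in WT. The lateral element genes Sycp2 and Sycp3 averaged 10.7 ± 3.1 and 1.81 ± 0.62 CPM in the knockout and 11.2 ± 1.0 and 1.83 ± 0.47 CPM in WT (SD, n = 3 each). Sycp3 rested on between 30 and 72 counts per library, and the limits of its interval were -0.65 and 0.65.

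The crossover genes spread on both sides of 0. Tex11, an X-linked gene whose loss lowers crossing over in males, had 3.07, 2.96 and 3.33 CPM in the knockout, against 5.16, 3.99 and 3.54 CPM in WT. The groups did not overlap, although WT mouse 3 stood close to knockout mouse 3, and the log2 fold change was -0.43 (SE 0.20, adjusted p = 0.590, edgeR), or -0.28 without WT mouse 1. Rnf212, a SUMO ligase that selects crossover sites, had 2.63, 1.91 and 1.84 CPM in the knockout and 3.13, 2.75 and 2.58 CPM in WT, with overlap at a single library (-0.41, SE 0.22, adjusted p = 0.641). Msh5 had 36.8, 34.9 and 32.6 CPM in the knockout and 48.1, 37.1 and 34.2 CPM in WT, and its partner Msh4 lay at 0.10 (SE 0.15). Without WT mouse 1, the highest library for Msh5, its log2 fold change was -0.047, against -0.19 (SE 0.14) with all 6. Mlh3, a mismatch repair relative that acts late in crossover formation, lay at 0.03 and Shoc1 at 0.31 (SE 0.13 and 0.22).

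Of the meiotic cohesins, Rad21l had 0.81, 0.86 and 0.81 CPM in the knockout and 1.31, 0.89 and 1.12 CPM in WT. Its log2 fold change was -0.42 (SE 0.30, adjusted p = 0.694, edgeR). The groups did not overlap in CPM, but the gap between knockout mouse 2 and WT mouse 2 was narrow. The gene rested on between 20 and 29 counts per library, so this separation is not firm, and the groups overlapped in TPM. Smc1b had 14.9, 12.3 and 16.6 CPM in the knockout and 19.6, 16.1 and 16.0 CPM in WT (-0.24, SE 0.15, adjusted p = 0.670), and lay at -0.126 without knockout mouse 2 and -0.146 without WT mouse 1. Stag3, the subunit shared by the meiotic complexes, had 542, 616 and 671 CPM in the knockout, against 495, 518 and 599.8 CPM in WT. Its log2 fold change was 0.18 (SE 0.13, adjusted p = 0.696), and the knockout mouse 1 value lay among those of WT. Stag3 was at 0.101 without knockout mouse 3 and 0.113 without WT mouse 1. Rec8, the kleisin that holds sister chromatids together, averaged 122 ± 33 CPM in the knockout and 123 ± 11 CPM in WT (SD, n = 3 each), with knockout mouse 2 the highest library at 159 CPM.

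The 4 telomere genes lay close to 0, between -0.07 for Sun1 and 0.04 for Terb2. Sun1, the inner nuclear membrane protein that meiotic telomeres attach to, had 244, 233 and 212 CPM in the knockout and 250.2, 253 and 223 CPM in WT (SE 0.12, adjusted p = 0.860, edgeR). Majin, which anchors the telomere complex in the membrane, had 10.8, 12.2 and 12.8 CPM in the knockout and 13.9, 9.58 and 13.3 CPM in WT (-0.04, SE 0.16, adjusted p = 0.955). Its sign turned in 5 of the 15 alternatives and that of Sun1 in 3.

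Set side by side, the median log2 fold change was -0.24 for entry, -0.14 for break formation, -0.13 for cohesin, -0.09 for synapsis, -0.08 for crossover, -0.01 for telomere, and 0.03 for both the HORMA axis and strand exchange. With 1 library left out the medians ran from -0.31 to -0.16 for entry, from -0.22 to -0.038 for break formation, from -0.19 to -0.10 for cohesin, from -0.21 to -0.038 for synapsis and from -0.17 to 0.0049 for crossover. The crossover median thus took both signs. So did those of the telomere genes (-0.083 to 0.040), the HORMA axis (-0.024 to 0.12) and strand exchange (-0.083 to 0.077). The order of the sub-groups is therefore not firm. No test of the differences between sub-groups was made, since the list was drawn up with results of these data known. The plotted level of a sub-group in a library is the median, over its genes, of log2 CPM centred on each gene's mean. The entry genes stood at -0.12, -0.12 and -0.05 in the knockout, against 0.30, 0.07 and 0.06 in WT, each in the order of the mouse numbers. Entry was the one sub-group of 8 in which the knockout libraries all lay below the WT libraries on this CPM scale. The summed TPM of the entry genes was 89.8, 95.5 and 119.8 in the knockout, against 80.1, 88.4 and 106.5 in WT. On log2 TPM centred on each library's median, the entry median was -0.23. For synapsis the values were -0.01, -0.08 and 0.22 in the knockout and 0.34, -0.00 and -0.03 in WT, so that WT mouse 1 and knockout mouse 3 stood above the rest. WT mouse 1 was the highest of the 6 libraries for entry, break formation, synapsis, crossover, cohesin and telomere.

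**Figure D3:**
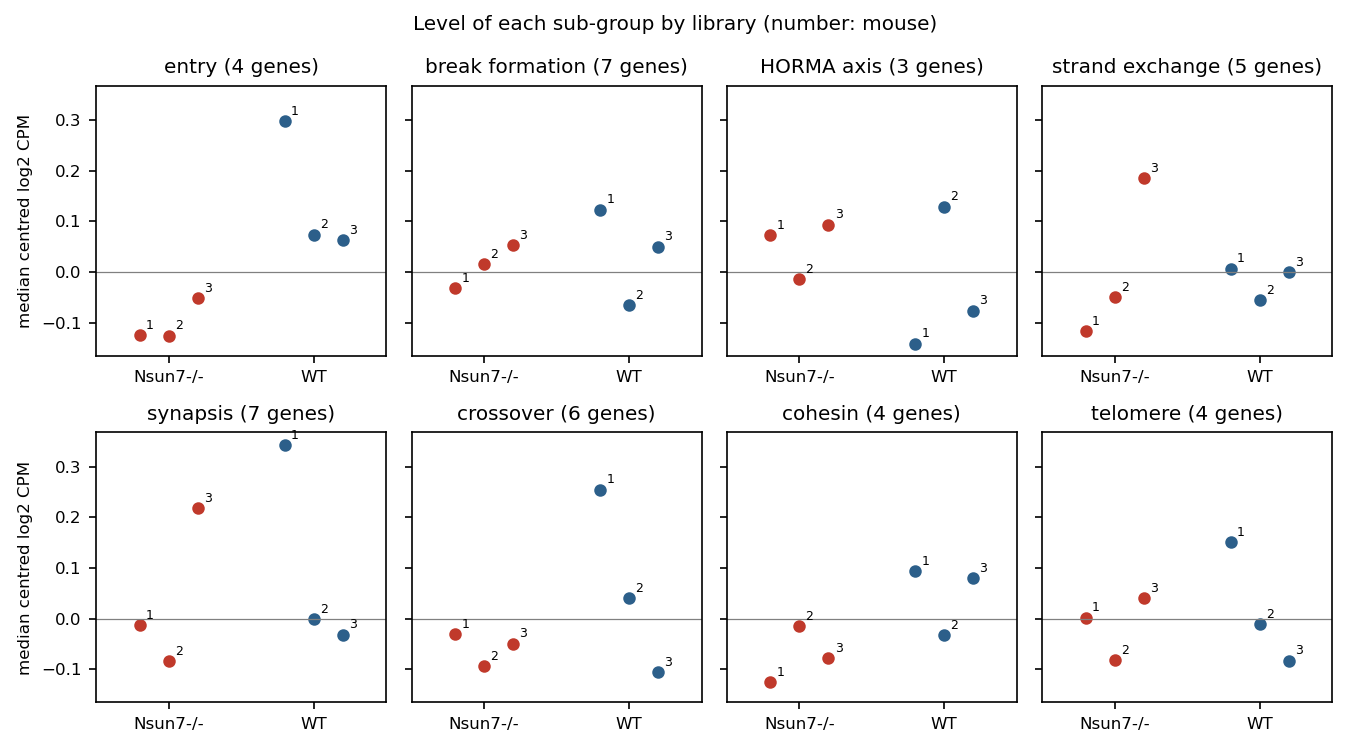
Median over each sub-group's genes of log2 CPM centred on the gene's mean over 6 libraries (y axis), for each knockout library (red) and WT library (blue), with the mouse number beside each point. Only in the entry panel do all knockout points lie below all WT points, at -0.12, -0.12 and -0.05 against 0.30, 0.07 and 0.06.

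Knockout mouse 3 was the highest of the 6 libraries for 13 of the 40 genes (32.5%), close to the 31.2% of all tested genes. Among them were Ankrd31, Hormad2, Brca2, Syce1, Sycp2, Shoc1 and Stag3. This library was the highest of the 3 knockout libraries for 22 members (55%, against 41.5% of all tested genes). The 13 genes had a median length of 2815 bases, weighted by transcript TPM, and the other 27 members 1617 bases. Over the 19612 tested genes with a length the same medians were 2109 bases (6125 genes) and 1765 bases (13487 genes). Length was also ranked against the log2 ratio of knockout mouse 3 to the mean of knockout mice 1 and 2. Spearman's rho was 0.25 over the members and 0.10 over these genes. The part of this library and of transcript length in the members' values was not tested. The pachytene spermatocyte markers, all 10 detected, summed to 10391, 9659 and 8081 CPM in the knockout libraries and to 11409, 11253 and 10164 CPM in WT, and 0 of the 10 were called. The lowest of these sums was in knockout mouse 3, where H1f6, Hspa2, Ldhc and Ybx2 weighed most (2207, 1647, 1543 and 1219 CPM). These genes, Piwil1 and Ccna1 were lowest of the 6 libraries there. Pgk2 and Adam2 were instead highest of the 6 in knockout mouse 3 (180.8 and 317.6 CPM). The sums therefore do not speak for every gene of the list. Of the list 4 lay above 0 and 6 below (median -0.06).

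Levels between genes were compared in TPM, which divides by length. Stag3 held the highest mean (222 TPM), with 199, 238.5 and 324 TPM in the knockout and 159, 177 and 236 TPM in WT. Sun1 came next, with 134, 149 and 177 TPM in the knockout and 102, 132 and 138 TPM in WT, and stood below Stag3 in each of the 6 libraries. Rec8 followed with 73.6, 112 and 84.5 TPM in the knockout and 57.9, 81.2 and 88.7 TPM in WT. Spo11 (mean 52.6 TPM) and Syce3 (52.3 TPM) changed places between libraries. Mean TPM was over 100 for 2 members, between 10 and 100 for 15 and under 10 for 23, with a median of 8.47. At the low end stood Rad21l, with 0.65, 0.75 and 0.82 TPM in the knockout and 0.76, 0.67 and 0.94 TPM in WT, and Mei4, with a mean of 0.40 TPM. Sycp3 averaged 2.33 TPM and Sycp1 35.7 TPM.

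**Figure D4:**
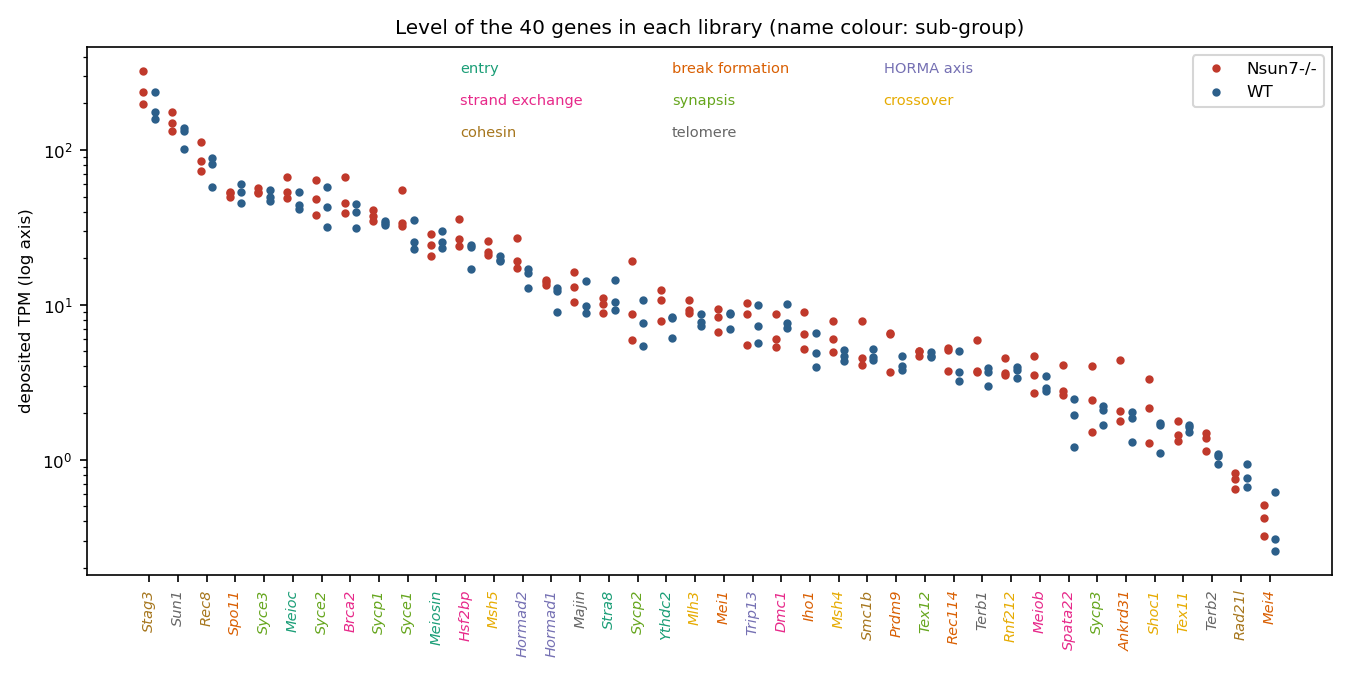
Deposited TPM (log axis) of the 40 genes in each library, knockout libraries red on the left and WT libraries blue on the right of each position, ordered by mean TPM, with names coloured by sub-group. Stag3 and Sun1 stand over 100 TPM on average, and the knockout and WT points of most genes intermingle.

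Several of these levels rested on transcripts that are short or not annotated as coding. The 40 genes had 186 annotated transcripts, of which 130 were tested and 0 passed (16 of 58773 over all transcripts, 0.0272%). At an unadjusted p under 0.05 there were 5 (3.85%, against 4.76% of all transcripts). Coding transcripts held over 90% of the counts in 21 genes and under 50% in 5, which were Meioc, Prdm9, Brca2, Hsf2bp and Terb1. Meioc had 50.8% of its counts, and 90.5% of its TPM, on a processed transcript of 647 bases. Terb1, a subunit of the telomere complex, had only 2.87% of its counts on coding transcripts and 74.2% on transcripts annotated for nonsense-mediated decay. Of Sycp1, 82.9% of the counts fell on a coding transcript of 665 bases.

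The leading transcript of Stra8, Stra8-203, had 166, 178 and 202 estimated counts in the knockout and 271, 235 and 271 in WT (log2 fold change -0.69, SE 0.17, adjusted p = 0.727 over all transcripts, edgeR). All knockout values lay below all WT values before scaling for depth. The coding transcript of Meiosin, listed as Gm4969-202, had 795, 637 and 877 estimated counts in the knockout and 943, 941 and 981 in WT (-0.48, SE 0.15, adjusted p = 0.932). It held 77.3% ± 4.2 of the gene's counts in the knockout and 84.8% ± 1.1 in WT (SD, n = 3 each), and the knockout shares all lay below those of WT. Sun1-204, the most abundant Sun1 transcript, held 20.2% ± 1.4 of the gene's counts in the knockout, against 25.5% ± 1.6 in WT. The libraries did not overlap in this share, and the transcript lay at -0.42 (SE 0.12, adjusted p = 0.907, edgeR). How many of all transcripts separate as Stra8-203, Gm4969-202 and Sun1-204 did was not computed, so none of them is read as a change of transcript use. Rad21l counts fell on 1 or the other of 2 transcripts of 1650 and 1659 bases in each library, so the choice between near-identical transcripts is uncertain in the estimates. The leading transcripts of Spo11, Mei1, Hormad2, Trip13, Dmc1, Brca2, Spata22, Syce1, Syce3, Tex11, Msh5, Rnf212, Smc1b, Stag3 and Majin had adjusted p-values of 0.93 or more.

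**Figure D5:**
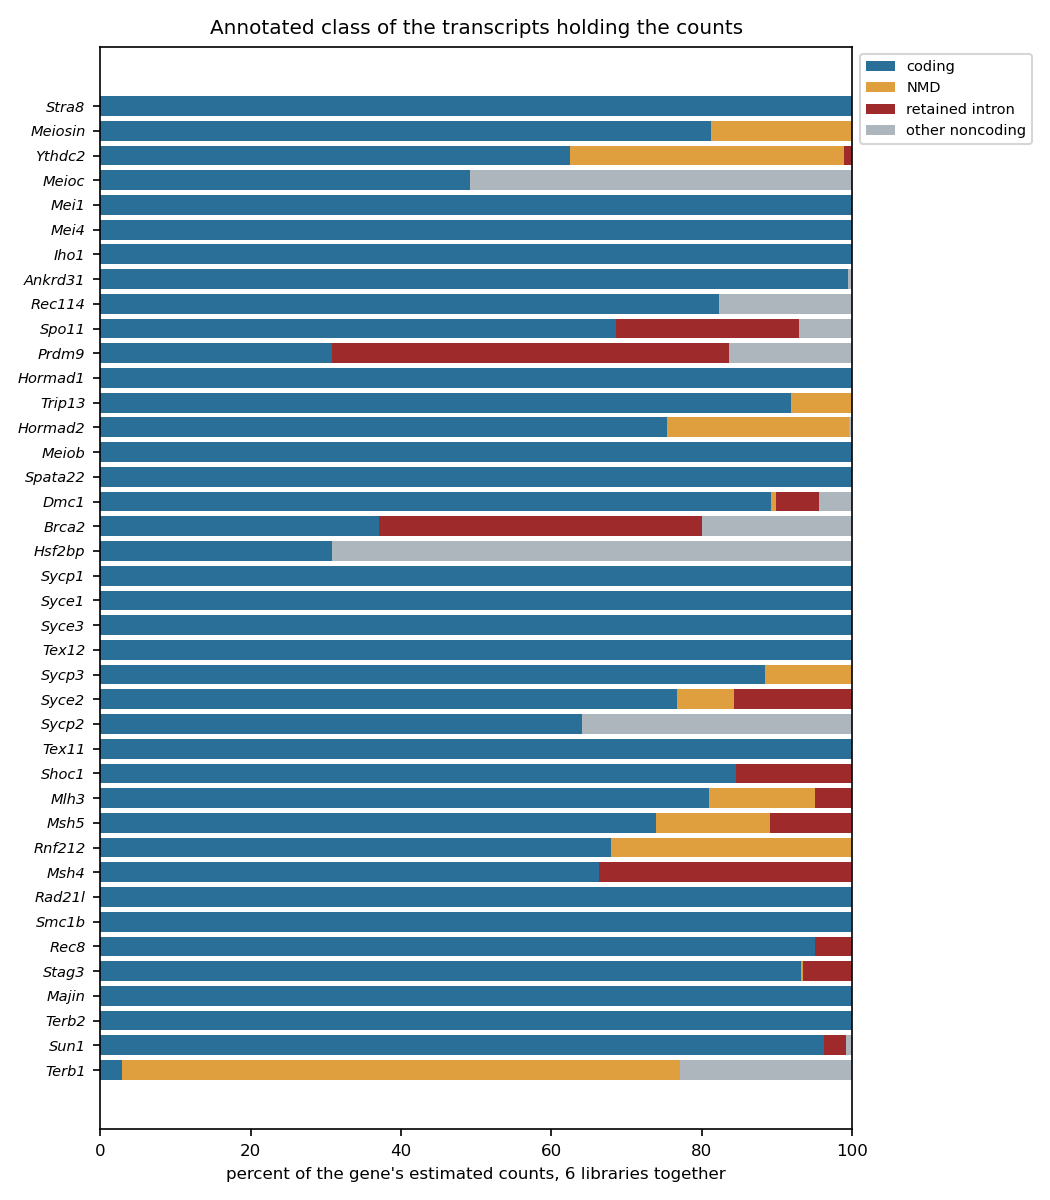
Share of each gene's estimated counts (percent, 6 libraries together) on transcripts annotated as coding, for nonsense-mediated decay (NMD), with a retained intron, or as other noncoding. Coding transcripts fill the bar for genes such as Stra8, Iho1 and Syce1, and hold 2.87% for Terb1.

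A further 77 meiotic genes were listed beside the members, of which 75 were found and tested. Of these 1 passed in the higher direction and 0 in the lower (0.233% and 0.333% of all genes do). The called gene was Hfm1, a DNA helicase needed for crossover formation, which rose to 18.2, 16.4 and 18.8 CPM in the knockout libraries, against 9.78, 11.2 and 8.98 CPM in WT. All knockout libraries stood well above all WT libraries, and the log2 fold change was 0.83 (SE 0.14, 95% interval 0.52 to 1.14, adjusted p = 0.0149, edgeR). The direction held in all 15 alternatives, but the call was lost in 6 of them, including without WT mouse 1 (adjusted p = 0.108) and without WT mouse 3 (0.116). Its main transcript Hfm1-201, of 5018 bases, had 447, 434 and 417 estimated counts in the knockout and 101, 164 and 227 in WT. A second coding transcript, Hfm1-202, of 4870 bases, had 158 counts in knockout mouse 3, 112 in WT mouse 1 and 126 in WT mouse 2 and close to none in the others (adjusted p 0.472 and 0.957 for the transcripts). Hfm1 lies on chromosome 5, as does Nsun7. The 4 members on chromosome 5, Brca2, Rnf212, Stag3 and Sun1, were at 0.03, -0.41, 0.18 and -0.07.

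The genes that work most closely with the members otherwise stayed below the threshold. Of the other break formation genes 4 of 5 lay above 0, with the smallest p for Mcmdc2 (0.26, SE 0.20, adjusted p = 0.697, edgeR). Strand exchange was split 9 above and 9 below, with Rpa1, a subunit of the single-strand binding protein RPA, at 220.1, 227 and 255 CPM in the knockout and 178, 193 and 215 CPM in WT (0.26, SE 0.12, adjusted p = 0.596). Among the synapsis genes Fkbp6, a co-chaperone needed in male meiosis, lay at -0.25 (SE 0.15), and among the general cohesin genes Rad21 lay at 0.24 (SE 0.14). Without knockout mouse 3, Mcmdc2 was at 0.035, Fkbp6 at -0.120 and Rad21 at 0.069, and Fkbp6 was at -0.155 without WT mouse 1. All 6 of the other telomere and nuclear envelope genes lay below 0, with Lmna, a lamin gene, at 28.4, 27.0 and 20.5 CPM in the knockout and 33.0, 31.9 and 30.3 CPM in WT (-0.33, SE 0.14, adjusted p = 0.563), or -0.20 without knockout mouse 3. Lmna gives lamins of somatic cells and a shorter lamin made in spermatocytes. The peritubular myoid markers, somatic cells of the tubule wall, had 7 of 7 below 0, from -0.39 to -0.003. They summed to 716, 701 and 565 CPM in the knockout and to 774, 791 and 742 CPM in WT. The other somatic lists differed in direction. Of the Sertoli markers 7 of 10 lay below 0, whereas 8 of 9 Leydig and 8 of 8 macrophage markers lay above. The part of any of these somatic cells in the Lmna value was not tested.

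Sycp3 shares exon sequence with Chpt1, Brca2 with Gm42529, Hsf2bp with Rrp1b, Msh4 with Gm24395, Rec114 with Nptn and Sun1 with 4930520M14Rik, each on the opposite strand in GENCODE M21. Whether counting used strand is not given in the sources used here. Reads within the shared sequence therefore cannot be assigned with certainty to these genes or to their antisense neighbours. How much of each gene is shared was not measured.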

How the data were processed

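RNA of 3 Nsun7-/- and 3 WT testes was depleted of ribosomal and globin RNA and made into libraries with a NEBNext Ultra II kit, per the labels' protocols. The submitters' processing notes name kallisto 0.50.1 and mm39. Which annotation, strand setting and gene-level rule were applied is not given in these sources. The deposited gene table holds whole-number counts, which lay within 1 count of summed transcript estimates for 96.6% to 96.8% of 31123 matched genes per library, and for all 40 members. The authors also deposited TPM per gene, and estimated counts and TPM per transcript, per the file headers. TPM gives each library the same total, so a few abundant RNAs move every other value.

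Gene counts, and transcript estimated counts rounded to whole numbers, went through edgeR 4.0.16 in R 4.3.3 (TMM, filterByExpr with a minimum count of 10 and a total of 15, robust quasi-likelihood test, genotype as the sole term), with Benjamini-Hochberg adjustment over 21002 genes or 58773 transcripts. CPM uses TMM-scaled library totals. Standard errors were derived from the fold change and the square root of its F value, and intervals are 95%. The biological coefficient of variation was 14.9%. The tests were first tested on simulated data. DESeq2 1.42.0 and limma 3.58.1 served as alternatives, with other scalings, filters, log2(TPM) fits, a replicate block and omitted libraries. No column belonged to another sample (0 found).

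Per-library values are given for the 2 members of each sub-group with the smallest p, its member of highest mean TPM, the most abundant transcript of each, the other pathway gene of smallest p in each list, and any called gene. Ankrd31 and the values of other members were added after their values were seen. The members and lists were chosen with earlier results of these data known. Meiosin, Iho1 and Shoc1 carry older names in GENCODE M21 and were matched through RefSeq synonyms. Of the pathway list Spo16 and Redic1 were not matched. GENCODE M21 and the RefSeq promoter table describe GRCm38, not the authors' mm39, so positions are printed for promoters only.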

Additional observations from a re-analysis of the deposited data

How the results depend on the processing

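None of the 40 genes was called under any of 15 alternatives (lowest adjusted p 0.134), and between 1 and 7 had an unadjusted p under 0.05. The median over the members stayed between -0.12 and -0.01, and no member transcript was called in the 9 alternatives run on transcripts. Over all genes, against 119 calls, there were 180 without a filter, 213 with DESeq2, 52, 48 and 54 on log2(TPM + 1), log2(TPM + 0.1) and centred log2 TPM, and between 67 and 166 when 1 library was left out. The replicate block gave 331 calls over all genes and 0 among the members. The mouse numbers were not taken as pairs, since the labels name no pairing. Deviations of same-numbered mice correlated at 0.177, -0.00476 and 0.199. Knockout mice 1 and 3 correlated best with the same-numbered WT mouse, and knockout mouse 2 with WT mouse 3 (0.0283). Whether the mice were paired cannot be told from these values.

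TPM values below are relative to the all-gene median, which lay 0.25 and 0.30 above 0 at pseudocounts 1 and 0.1. At these pseudocounts the tests, here and above, were run before that shift was taken off. Their p-values and calls therefore do not belong to the printed values, whereas those on centred log2 TPM do. The Nsun7 call was lost on log2(TPM + 1) (-0.71), log2(TPM + 0.1) (-0.80) and centred log2 TPM (-0.82), and its fold change ran from -1.03 to -0.76 with 1 library left out. The break formation median (-0.14) moved to 0.0049 on log2(TPM + 1), 0.0033 on log2(TPM + 0.1) and -0.018 on centred log2 TPM, and ran from -0.22 to -0.038 with libraries left out (-0.055 without both WT mouse 1 and knockout mouse 3). The cohesin median (-0.13) moved to -0.061 on log2(TPM + 1) and ran from -0.19 to -0.10 with 1 library left out.

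Of 420 values for 28 named genes, 23 had the other sign, none of them called. On log2(TPM + 1) these were Meioc 0.021, Trip13 -0.18, Sun1 0.049 and Majin 0.0023. On log2(TPM + 0.1) they were Trip13 -0.22 and Sun1 0.0023, and on centred log2 TPM Trip13 -0.24. Without both WT mouse 1 and knockout mouse 3 they were Hormad2 -0.0090, Trip13 -0.073, Brca2 -0.070, Msh5 0.0069, Sun1 0.0084, Majin 0.010 and Mcmdc2 -0.0045. Over these omissions and those of 1 library, the highest value of Hormad2 was 0.24 and that of Mcmdc2 0.40, and the lowest of Msh5 was -0.29 and of Sun1 -0.13. Trip13 ran from -0.073 to 0.12, Majin from -0.20 to 0.050 and Brca2 from -0.083 to 0.077. The cause was not tested. Depth limits genes such as Mei4, Rad21l and Sycp3, at 12 to 31, 20 to 29 and 30 to 72 counts per library.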

Other observations

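Beside the recombination genes, 9 genes of sex chromosome silencing in spermatocytes and 13 regulators of meiotic transcription were listed, and 0 of these 22 were called. H2ax, the histone variant that is phosphorylated over the unsynapsed X and Y chromosomes, had 3272, 3062 and 2064 CPM in the knockout libraries, against 5109, 3666 and 3054 CPM in WT. WT mouse 1 stood highest and knockout mouse 3 lowest, and the log2 fold change was -0.49 (SE 0.21, adjusted p = 0.567, edgeR). It was -0.27 without WT mouse 1, -0.32 without knockout mouse 3 and -0.085 without both. Of the 9 silencing genes 6 lay above 0 and 3 below. Taf7l, a germ cell form of a TFIID subunit on the X chromosome, had 20.1, 18.7 and 19.3 CPM in the knockout and 24.1, 22.1 and 22.96 CPM in WT, with no overlap (-0.25, SE 0.12, adjusted p = 0.614). Of the 13 transcription regulators 5 lay above 0 and 8 below.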
